A study of Mus musculus with 12 samples.

Results

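The enzymes that make and break down cyclic AMP and cyclic GMP were examined in striatal RNA of mice given saline or varenicline before drinking ethanol. They were taken from the deposited count table by symbol, as every Adcy, Gucy and Pde gene followed by a number or subunit name, leaving out Pde4dip, which encodes a phosphodiesterase-interacting protein and not an enzyme. This gave 44 of 24421 genes, made up of 10 adenylyl cyclases, 9 guanylyl cyclases or their subunits and 25 phosphodiesterases. With at least 10 counts in 6 or more libraries, 35 of the 44 could be tested, among 15111 genes tested in all.

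Adenylyl cyclases form cyclic AMP from ATP under the control of G proteins, and some of them also respond to calcium bound to calmodulin. Guanylyl cyclases form cyclic GMP, either as soluble heterodimers of an alpha and a beta subunit that sense nitric oxide or as membrane receptors for peptides. Phosphodiesterases hydrolyse one or both nucleotides, and in striatal projection neurons the balance of these enzymes sets the response to dopamine and adenosine.

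The samples were bilateral striatum of male mice of the inbred strain C57BL/6J. All 12 libraries were from animals that drank 20% ethanol, so no ethanol-free group is included. In the Drinking-in-the-Dark procedure, ethanol replaced water for 2 h, starting 3 h into the dark phase, over 3 cycles of 2 days. All animals received saline in the first cycle. Thereafter 6 libraries are from animals kept on saline and 6 from animals given 2 mg/kg varenicline, a partial agonist at nicotinic acetylcholine receptors used for smoking cessation, 30 min before the second-day session of the last 2 cycles, and tissue was taken when the final session ended. The groups were balanced for earlier ethanol intake. The sources used here do not state the age of the mice or whether a library holds RNA of 1 animal. The p-values therefore measure only the spread between these samples, which may be technical.

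Library totals ran from 13340420 to 27917715 counts, so 3 counts corresponded to 0.107 to 0.225 CPM, the count scaled to library size. The defining markers of striatal projection neurons were all detected, 14 of 14, with a summed level of 6539 to 10104 CPM with saline and 7164 to 11206 CPM with varenicline. Markers of cortical excitatory neurons differed between the groups. Their mean log2 CPM, here called the cortical score, was 4.52 to 5.44 in the saline libraries and 2.84 to 4.22 in varenicline libraries 1 to 5, whereas varenicline 6 had 5.31. Varenicline 6 also stood apart in Pomc, the only hypothalamic or pituitary marker of 7 with enough counts to test. Its log2 CPM of Pomc was 4.80, against at most 0.96 in any other library. Results that the text turns on are therefore given with and without that library. In bulk tissue, fewer cells of a type and less RNA per cell cannot be told apart.

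In both groups a few enzymes made up most of the messages of each class. Levels are compared between genes as CPM per kilobase of exon. The highest was Pde1b, a calcium- and calmodulin-stimulated phosphodiesterase, at a mean of 385, followed by Adcy5, the cyclase known as the main one of striatal projection neurons, at 244. Pde10a, a dual-specificity phosphodiesterase concentrated in the same neurons, reached 240, and Pde2a, which cyclic GMP stimulates to hydrolyse cyclic AMP, reached 206. Among the guanylyl cyclases the soluble beta subunit Gucy1b3 (70.6) and its partner Gucy1a3 (33.9) were highest. Pde7b, a cyclic AMP-specific enzyme, had 55.4 and Adcy1, a calmodulin-stimulated cyclase, 49.2.

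Below these, Pde6d, a prenyl-binding chaperone despite its name, had 35.5 CPM per kilobase. The cyclic AMP-specific genes Pde4b, Pde8b and Pde4a had 30.8, 29.3 and 21.7. The lowest tested enzymes were Pde11a at 0.242 and the retinal guanylyl cyclase Gucy2f at 0.122. The plot of levels per length shows that the tested enzymes span more than 3 powers of 10 and that the same genes led each class in both groups.

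**Figure D1:**
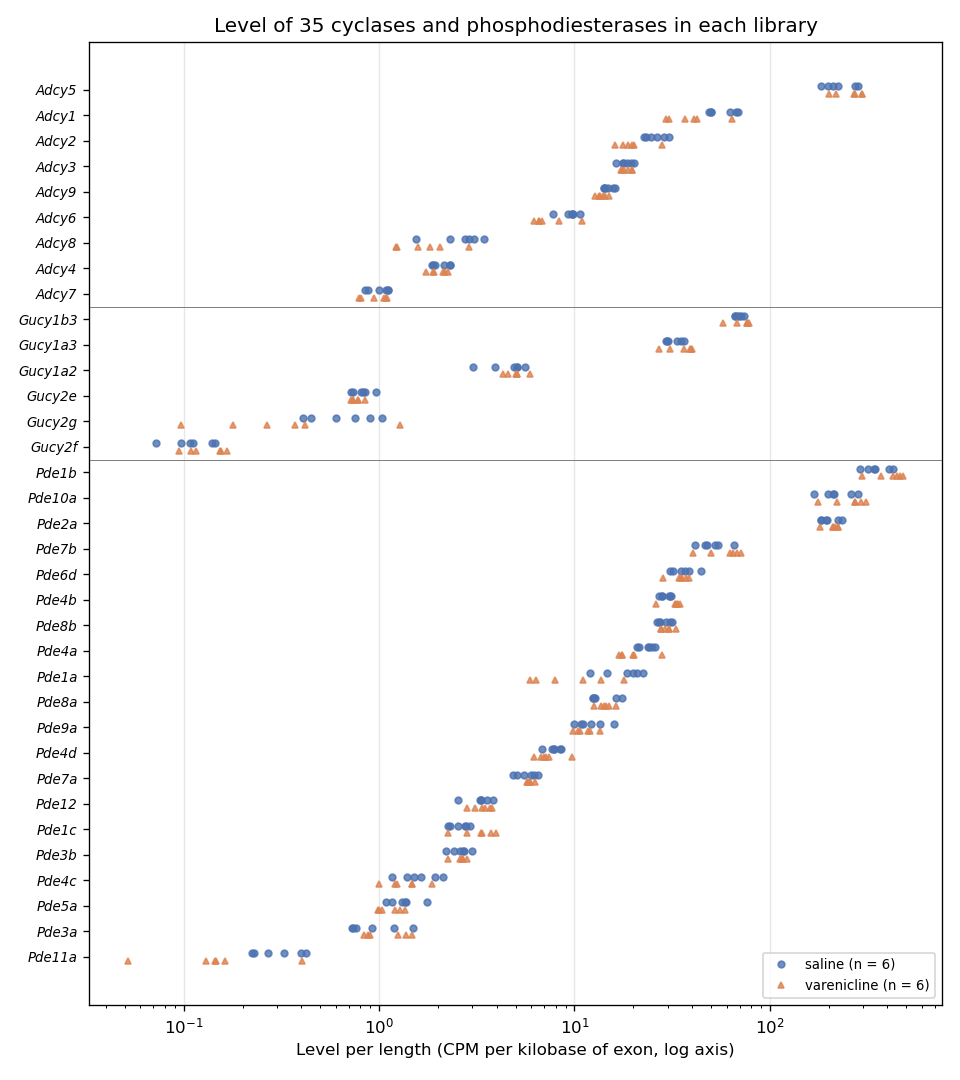
Level of each tested cyclase and phosphodiesterase in CPM per kilobase of exon (log axis), 1 point per library, for 6 saline (circles) and 6 varenicline (triangles) libraries. Adcy5, Gucy1b3 and Pde1b lead their classes, with means of 244, 70.6 and 385, and in Pde1a and Pde11a several varenicline points lie to the left of every saline point.

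A total of 9 enzymes were too low to test. Over all 12 libraries together, Gucy2c, the intestinal guanylin receptor, had 105 counts and the soluble subunit Gucy1b2 had 76. The photoreceptor phosphodiesterase genes Pde6g, Pde6b, Pde6h, Pde6a and Pde6c had 55, 50, 41, 28 and 25 counts. Adcy10, the bicarbonate-stimulated soluble cyclase, had 19 counts, and Gucy2d had 2. No comparison between groups was made for these genes.

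No cyclase or phosphodiesterase passed an adjusted p of 0.05 between the groups in edgeR's quasi-likelihood test with Benjamini-Hochberg adjustment, 0 of 35, and 0 of all 15111 genes did (0.0%). At an unadjusted p under 0.05 there were 9 of the 35 enzymes, or 25.7%, beside 2556 of all genes, or 16.9%. Of these 9, 2 had higher values with varenicline (5.71% of the enzymes, beside 7.27% of all genes) and 7 had lower values (20.0%, beside 9.64%). The lower ones were the cyclases Adcy1, Adcy2, Adcy6 and Adcy8 and the phosphodiesterases Pde1a, Pde4a and Pde11a. Of these, Pde11a passed the count filter through its saline libraries. The higher ones were Pde1c and Pde4b. Direction over all 35 enzymes was even, with 18 fold changes above 0 (51.4%, beside 52.3% of all genes) and a median log2 fold change of 0.0067, beside 0.0074 for all genes. The median size of the change, regardless of sign, was 0.14, beside 0.10 for all genes, on the log2 scale.

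The call depended on the tool and on varenicline 6. DESeq2 called 406 genes (2.69%) and 1 of the 35 enzymes, Adcy2, and limma-voom with sample weights called 2102 genes (13.9%) and 14 enzymes, of which 6 rose (beside 4.84% of all genes) and 8 fell (beside 9.07%). Without varenicline 6, edgeR called 1609 genes (10.6%) and 11 enzymes (31.4%). That library was picked by its expression, with a cortical score inside the saline range. Adjusted p without it is therefore descriptive, here and below. In that fit of 6 saline and 5 varenicline libraries, 3 enzymes rose, Pde1b, Pde1c and Pde4b (8.57%, beside 3.06% of all genes). The other 8 fell, Adcy1, Adcy2, Adcy6, Adcy8, Pde1a, Pde4a, Pde11a and Gucy2g (22.9%, beside 7.58%). With the cortical score as a covariate over all 12 libraries, 0 of the 35 enzymes and 6 genes in all (0.0397%) were called by edgeR, and at an unadjusted p under 0.05 there was 1 enzyme, Pde4d, beside 812 of all genes (5.37%). DESeq2 with the same covariate called 0 enzymes and 26 genes (0.172%). When varenicline 6 was left out as well, edgeR with the cortical score called 0 enzymes and 0 genes (0.0%), with 3 enzymes (8.57%) and 1936 genes (12.8%) at an unadjusted p under 0.05. In that fit the scores of the groups do not overlap (4.52 to 5.44 against 2.84 to 4.22), so score and group cannot be told apart there. The plot of fold changes sets these values side by side.

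**Figure D2:**
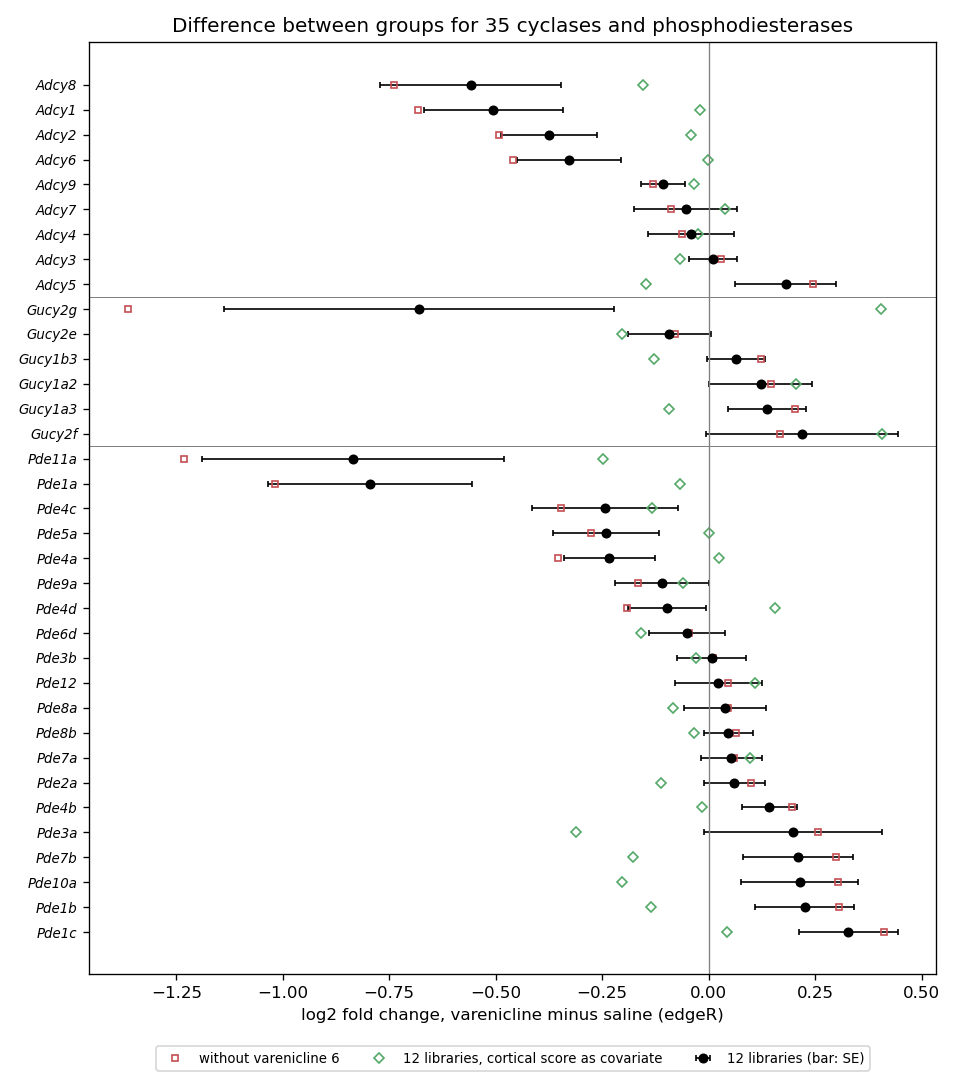
Log2 fold change (varenicline minus saline, edgeR) of the 35 tested enzymes by class: filled circles with SE for all 12 libraries, squares without varenicline 6, diamonds with the cortical score as a covariate. The squares of the 9 enzymes with an unadjusted p under 0.05 lie farther from 0 than the circles, as for Pde1a (-1.02 against -0.79), and their diamonds lie closer to 0 (-0.07 for Pde1a).

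Of the 9 adenylyl cyclases tested, 2 had higher and 7 had lower mean values with varenicline, and 4 of the lower ones had an unadjusted p under 0.05. Adcy1 (chromosome 11, 7063489 to 7178505, plus strand, 20 exons; mm10), a neuronal cyclase stimulated by calcium and calmodulin, ran from 596 to 843 CPM with saline (median 691) and from 359 to 788 with varenicline (median 476). Varenicline 1 to 5 all lay below the lowest saline library, and varenicline 6 was the highest of its group, inside the saline range. The means were 708 ± 114 and 499 ± 156 CPM (SD, n = 6 each). The difference was -0.51 on the log2 scale (SE 0.163, adjusted p = 0.162 in edgeR) and -0.68 without varenicline 6 (adjusted p = 0.00185). It was -0.02 once the cortical score was a covariate (adjusted p = 0.993), and -0.06 with the score and without varenicline 6.

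Adcy2 (chromosome 13, 68620043 to 68999541, minus strand, 25 exons), a cyclase stimulated by G protein beta-gamma subunits, showed the same arrangement of libraries. It ran from 96.1 to 128 CPM with saline (median 107) and from 67.9 to 118 with varenicline (median 81.0), with 5 of 6 varenicline libraries below every saline library. The means were 110 ± 12.9 and 84.5 ± 17.5 CPM (SD, n = 6 each). The log2 fold change was -0.37 (SE 0.113), with an adjusted p of 0.147 in edgeR and of 0.0465 in DESeq2. Over 27 alternatives its adjusted p ranged from 0.00151, in edgeR without varenicline 6 (log2 fold change -0.49), to 0.998. Fitted together with the cortical score, the fold change was -0.04 (adjusted p = 0.974), and -0.11 without varenicline 6 in that fit. The antisense gene Gm35161 covers 4.49% of the exon length of Adcy2, and the sources used here do not state whether counting used strand.

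Adcy6, a calcium-inhibited cyclase closely related to Adcy5, ran from 46.7 to 64.4 CPM with saline (median 58.2) and from 37.2 to 65.6 with varenicline (median 40.5). The groups overlapped, since varenicline 6 was the highest of all 12 libraries and varenicline 1 lay inside the saline range. Its log2 fold change was -0.33 (SE 0.122, adjusted p = 0.198 in edgeR), -0.46 without varenicline 6 (adjusted p = 0.00298) and -0.0023 with the cortical score, or -0.16 with the score and without varenicline 6. Antisense Gm29331 covers 10.04% of its exon length. Adcy8, the other calmodulin-stimulated cyclase, was lower in level, from 7.83 to 17.4 CPM with saline (median 14.2) and from 6.16 to 14.6 with varenicline (median 8.59). The groups overlapped, and 2 varenicline libraries lay below the saline range. The log2 fold change of Adcy8 was -0.56 (SE 0.213, adjusted p = 0.206 in edgeR), -0.74 without varenicline 6 (adjusted p = 0.0197) and -0.15 with the cortical score. With the score and without varenicline 6 it was -0.41 (adjusted p = 0.617).

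Adcy5, the most abundant cyclase, lay on the other side. It ran from 921 to 1429 CPM with saline (median 1098) and from 1010 to 1506 with varenicline (median 1369). The groups overlapped, with 2 varenicline libraries above every saline library and varenicline 6 the lowest of its group. Adcy5 had a log2 fold change of 0.18 (SE 0.120, adjusted p = 0.459 in edgeR), 0.24 without varenicline 6 (adjusted p = 0.171) and -0.15 with the cortical score, where the sign turned (adjusted p = 0.939). As a share of the summed level per length of the 9 cyclases, Adcy5 made up 63.0 ± 5.85% with saline (55.7 to 70.6%) and 70.8 ± 6.86% with varenicline (58.5 to 76.6%). Adcy1 made up 16.2 ± 3.60% and 11.3 ± 4.11%. Over varenicline 1 to 5 the shares were 73.2 ± 3.69% for Adcy5 and 9.84 ± 2.04% for Adcy1 (SD, n = 5). The summed level itself was 361 ± 31.9 and 364 ± 28.2 CPM per kilobase in saline and varenicline libraries (SD, n = 6 each), and 369 ± 28.9 without varenicline 6 (n = 5). Shares add up to a whole and so do not vary independently, and no test was made on them.

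The remaining adenylyl cyclases had log2 fold changes between -0.11 and 0.01. Adcy9, a widely expressed cyclase, had -0.11 (SE 0.0514, adjusted p = 0.307 in edgeR), with 5 of 6 varenicline libraries below the saline mean, and -0.13 without varenicline 6 (adjusted p = 0.109). Adcy7, a cyclase of blood and immune cells as well as brain, had -0.05, Adcy4 had -0.04 and Adcy3, the cyclase of olfactory neurons and neuronal cilia, had 0.01. Without varenicline 6 these 3 had -0.09, -0.06 and 0.03, with adjusted p of at least 0.716 in edgeR. Exons of Cenpo on the opposite strand cover 29.2% of the exon length of Adcy3, so its value is uncertain if counting did not use strand.

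No guanylyl cyclase had an unadjusted p under 0.05, and 4 of 6 tested had higher and 2 lower mean values with varenicline. The soluble beta subunit Gucy1b3 ran from 214 to 239 CPM with saline (median 223) and from 186 to 254 with varenicline (median 247). Of its varenicline libraries, 4 lay above every saline library and varenicline 6 lay below all of them. Its log2 fold change was 0.06 (SE 0.0684, adjusted p = 0.664 in edgeR) and 0.12 without varenicline 6 (adjusted p = 0.114). The alpha subunit Gucy1a3 ran from 136 to 169 CPM with saline (median 148) and from 126 to 186 with varenicline (median 175). Its log2 fold change was 0.14 (SE 0.0926, adjusted p = 0.469 in edgeR) and 0.20 without varenicline 6 (adjusted p = 0.0956), and here too varenicline 6 was the lowest library of all. Both signs turned when the cortical score was a covariate, to -0.13 for Gucy1b3 and -0.09 for Gucy1a3. With the score and without varenicline 6 they were -0.020 and 0.03, in a fit where score and group cannot be told apart.

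Gucy1b3 and Gucy1a3 made up 64.2 and 30.0% of the summed level per length of the 6 guanylyl cyclases with saline, and 63.3 and 31.0% with varenicline (63.4 and 31.3% without varenicline 6). The other alpha subunit, Gucy1a2, had 0.12 (SE 0.122) on the log2 scale. The membrane forms with a Gucy symbol were scarce. Npr2, a membrane form left out by the choice by symbol, had means of 48.4 CPM with saline and 43.0 with varenicline. Gucy2e and Gucy2f, retinal guanylyl cyclases, had log2 fold changes of -0.09 and 0.22 with adjusted p of 0.665 and 0.653 in edgeR. Gucy2g, a receptor guanylyl cyclase, ran from 1.59 to 4.01 CPM with saline (median 2.64) and from 0.377 to 4.96 with varenicline (median 1.24), the highest value being that of varenicline 6. Its log2 fold change was -0.68 (SE 0.458, adjusted p = 0.467 in edgeR), -1.36 without varenicline 6 (adjusted p = 0.0191), and 0.41 with the cortical score over all libraries, or 0.21 with the score and without varenicline 6.

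Of the 20 phosphodiesterases tested, 12 had higher and 8 lower mean values with varenicline, and 2 and 3 of them had an unadjusted p under 0.05. The calcium- and calmodulin-stimulated Pde1 genes went different ways. Pde1a (chromosome 2, 79834453 to 80129412, minus strand, 19 exons) ran from 59.2 to 110 CPM with saline (median 94.7) and from 29.0 to 87.9 with varenicline (median 46.6). In it, 4 varenicline libraries lay below every saline library, and all 6 lay below the saline mean. The means were 88.9 ± 19.6 and 51.4 ± 23.1 CPM (SD, n = 6 each). On the log2 scale the difference was -0.79 (SE 0.240, adjusted p = 0.147 in edgeR), -1.02 without varenicline 6 (adjusted p = 0.00531) and -0.07 with the cortical score (adjusted p = 0.970). With the score and without varenicline 6 the sign turned, to 0.15 (adjusted p = 0.656).

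Pde1c ran from 28.9 to 37.5 CPM with saline (median 33.9) and from 29.0 to 50.9 with varenicline (median 43.1), with 4 varenicline libraries above every saline library and varenicline 6 the lowest of its group. Its log2 fold change was 0.33 (SE 0.116, adjusted p = 0.185 in edgeR), 0.41 without varenicline 6 (adjusted p = 0.00879) and 0.04 with the cortical score, or 0.22 with the score and without varenicline 6 (adjusted p = 0.549). Pde1b, the most abundant of the phosphodiesterases, ran from 1064 to 1574 CPM with saline (median 1261) and from 1088 to 1766 with varenicline (median 1612). The groups overlapped, and 3 varenicline libraries exceeded every saline library. For Pde1b the log2 fold change was 0.23 (SE 0.116, adjusted p = 0.336 in edgeR), 0.31 without varenicline 6 (adjusted p = 0.0497) and -0.14 with the cortical score (adjusted p = 0.939).

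The Pde4 genes, cyclic AMP-specific enzymes that rolipram inhibits, also differed among themselves. Pde4a ran from 107 to 133 CPM with saline (median 122). With varenicline, 5 libraries lay below that range, from 86.7 CPM upwards, and varenicline 6 lay above it at 144 CPM (group median 95.7). Pde4b showed the reverse, running from 163 to 187 CPM with saline (median 177), with 5 varenicline libraries above that range, up to 209 CPM, and varenicline 6 below it at 159 (group median 202). The log2 fold change of Pde4a was -0.23 (SE 0.107, adjusted p = 0.280 in edgeR) and that of Pde4b 0.14 (SE 0.0646, adjusted p = 0.279). Without varenicline 6 they were -0.35 (adjusted p = 0.00359) and 0.20 (adjusted p = 0.0154). With the cortical score over 12 libraries they were 0.02 and -0.02, with signs turned. With the score and without varenicline 6 they were -0.19 (adjusted p = 0.487 in edgeR) and 0.11 (adjusted p = 0.589). Score and group cannot be told apart in that fit. Pde4c had -0.24 and Pde4d -0.10 on the log2 scale, with adjusted p of 0.487 and 0.616 in edgeR. Beside the cortical score Pde4d had 0.16 (adjusted p = 0.918).

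Pde11a, a scarce dual-specificity enzyme, ran from 0.635 to 1.21 CPM with saline (median 0.848) and from 0.148 to 1.14 with varenicline (median 0.415). Its 5 varenicline libraries other than varenicline 6 lay below every saline library, and varenicline 1, at 0.148, was under the level of 3 counts in that library (0.225 CPM). Pde11a had 13 to 28 counts with saline and 2, 10, 10, 8, 8 and 20 in varenicline 1 to 6. The saline libraries, where it was higher, therefore met the count filter alone. For Pde11a the log2 fold change was -0.83 (SE 0.354, adjusted p = 0.250 in edgeR), -1.23 without varenicline 6 (adjusted p = 0.0197) and -0.25 with the cortical score. With the score and without varenicline 6 it was -1.19 (adjusted p = 0.443 in edgeR), in a fit where score and group cannot be told apart. DESeq2 gave no adjusted p for it.

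Pde10a (chromosome 17, 8526801 to 8986648, plus strand, 24 exons) ran from 1376 to 2298 CPM with saline (median 1730) and from 1433 to 2543 with varenicline (median 2221). The groups overlapped, with 2 varenicline libraries above every saline library. Pde10a had a log2 fold change of 0.21 (SE 0.137, adjusted p = 0.444 in edgeR), 0.30 without varenicline 6 (adjusted p = 0.105) and -0.20 with the cortical score (adjusted p = 0.918). Pde7b had a similar value, 0.21 (SE 0.129, adjusted p = 0.421 in edgeR), with 0.30 without varenicline 6 (adjusted p = 0.0803), and also turned with the cortical score, to -0.18. With the score and without varenicline 6, Pde10a, Pde1b and Pde7b had -0.21, -0.13 and -0.12. Pde2a had 0.06 (SE 0.0718), with the varenicline range of 836 to 1036 CPM beside 843 to 1082 with saline. A second gene model with the symbol Pde2a shares 98.6% of its exon length, so how reads were divided is uncertain. As shares of the summed level per length of the 20 phosphodiesterases, Pde1b, Pde10a and Pde2a made up 34.8, 21.7 and 19.8% with saline and 36.8, 22.8 and 18.9% with varenicline (37.5, 23.4 and 18.5% without varenicline 6).

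The other phosphodiesterases had smaller or less certain differences. The cyclic GMP-specific Pde5a, the target of sildenafil, had -0.24 (SE 0.125) on the log2 scale, and Pde9a, a high-affinity cyclic GMP enzyme, had -0.11 (SE 0.110). The cyclic GMP-inhibited Pde3a and Pde3b had 0.20 (SE 0.209) and 0.01 (SE 0.0813). The cyclic AMP-specific Pde7a, Pde8a and Pde8b had 0.05, 0.04 and 0.05. Pde12, an enzyme that removes poly(A) and 2-prime,5-prime-linked adenylates, had 0.02, and Pde6d had -0.05. Adjusted p in edgeR was 0.337 for Pde5a and at least 0.642 for the other 8. Without varenicline 6 Pde5a had -0.28 (adjusted p = 0.200), and the other 8 had an adjusted p of at least 0.359. Opposite-strand genes cover 17.6% of the exon length of Pde3a, 14.9% of Pde12, 12.2% of Pde8b and 7.61% of Pde9a.

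**Figure D3:**
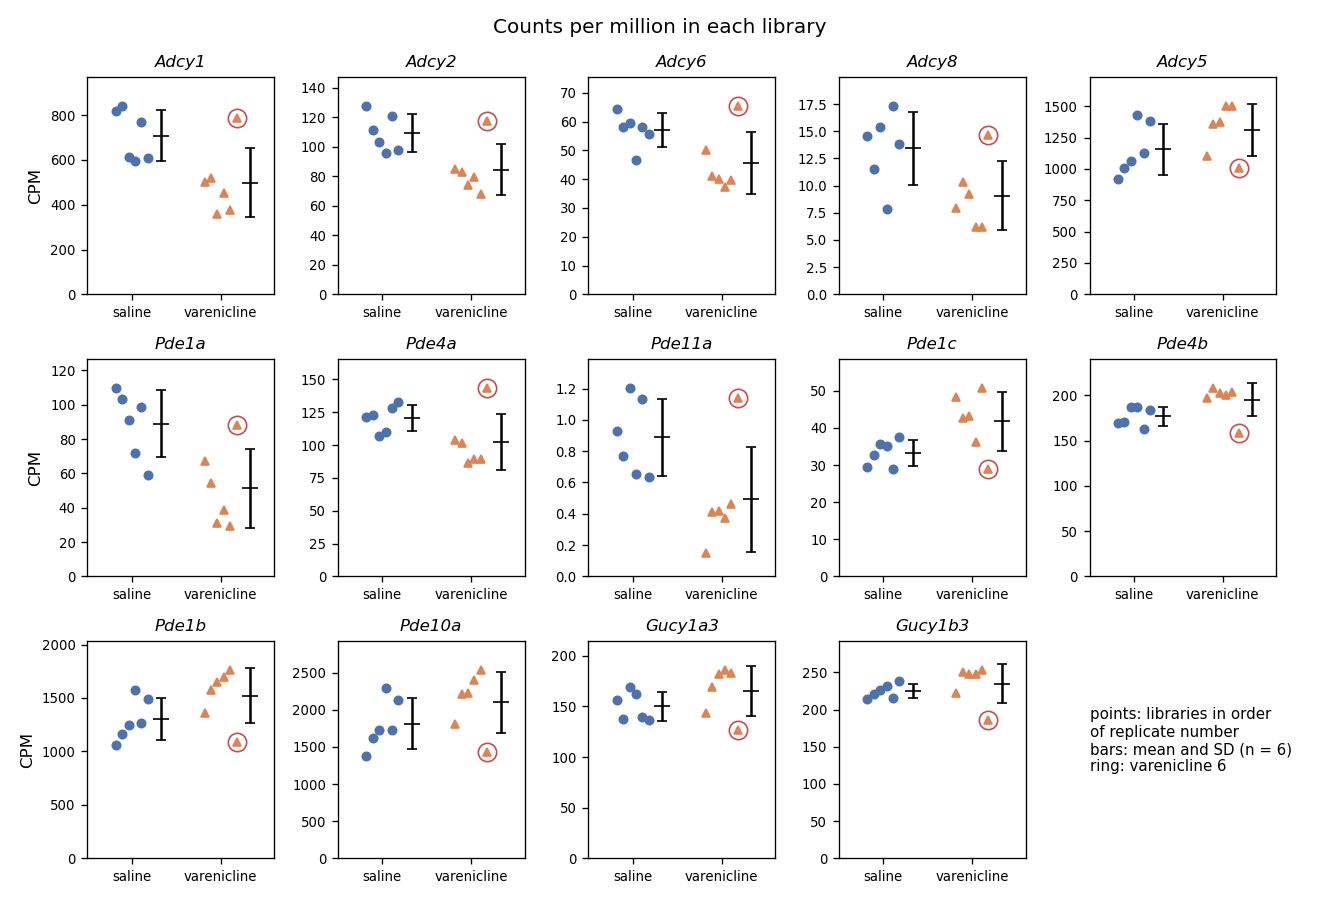
Level in CPM in each library (y axes from 0) for the 9 enzymes with an unadjusted p under 0.05 and for the highest enzymes of each class, with the mean and SD beside each group (n = 6) and a ring around varenicline 6. In Adcy1 and Adcy2 the ringed library lies among the saline values (788 and 118 CPM) while the other 5 varenicline libraries lie below them.

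The CPM values of the groups overlapped for 35 of 35 enzymes, while for 114 of all genes (0.754%) they did not. Without varenicline 6 the groups did not overlap for 5 enzymes, Pde4b above and Adcy1, Adcy2, Pde4a and Pde11a below, 14.3% beside 7.41% of all genes. That library was picked by its expression, so this count is descriptive only. It includes Pde11a, which passed the count filter through its saline libraries, where it was higher. The same libraries stood high or low in several enzymes. Among the 9 enzymes with an unadjusted p under 0.05, varenicline 6 was the highest varenicline library in each of the 7 lower ones and the lowest in Pde1c and Pde4b. It lay beyond the saline range in Adcy6, Pde4a and Pde4b and inside it in the other 6.

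Some of the enzymes also differed with the cortical score within the saline group. Saline 4 and saline 6 had the lowest cortical scores of the saline libraries, 4.55 and 4.52. They had the lowest saline values of Pde1a (71.7 and 59.2 CPM), of Adcy1 (596 and 610) and of Adcy2 (96.1 and 97.7). They had the highest saline values of Pde10a (2298 and 2130 CPM), Adcy5 (1429 and 1381) and Pde1b (1574 and 1492). In Adcy6, too, they had the lowest saline values (46.7 and 55.8 CPM). Saline 4 and saline 6 parted in Adcy8 and Pde4a. Saline 4 had the lowest saline value of Adcy8 (7.83 CPM), and 110 CPM of Pde4a. Saline 6 had the highest saline value of Pde4a (133 CPM), and its value of Adcy8 (13.8) lay close to the saline median. The plot against the cortical score shows Pde1a, Adcy1, Adcy2, Pde10a, Adcy5 and Pde1b for all 12 libraries.

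**Figure D4:**
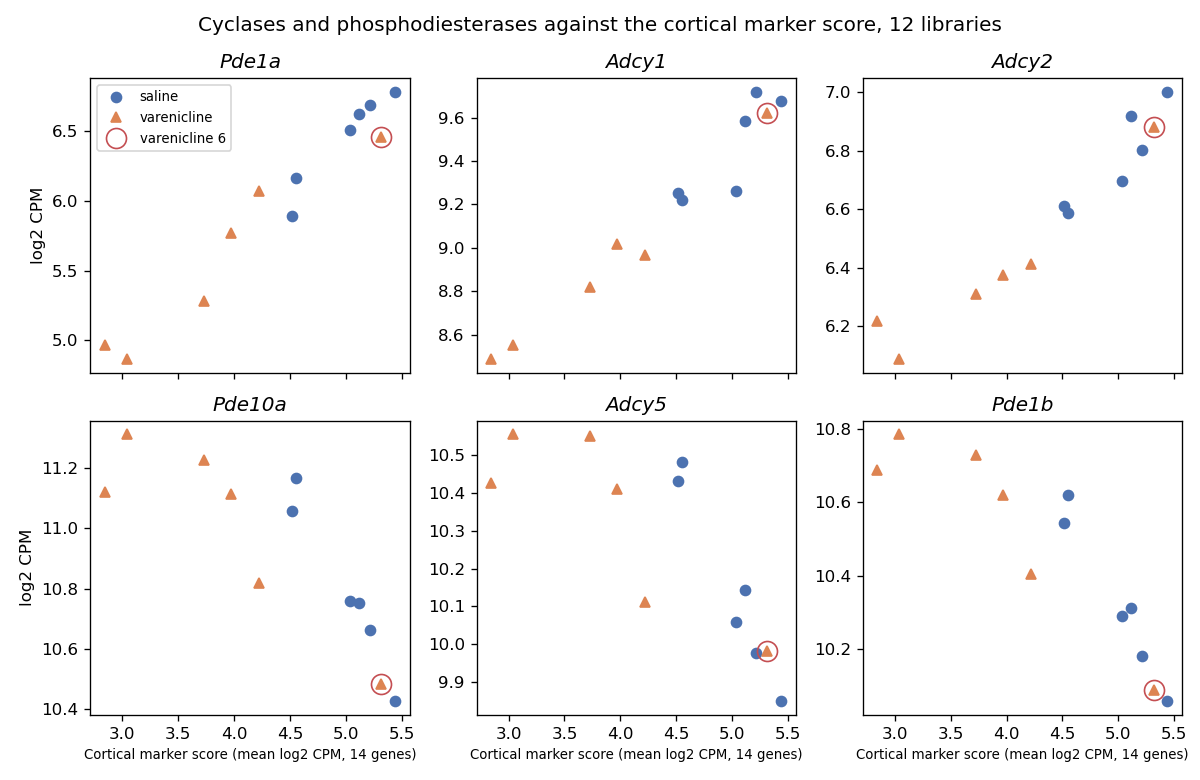
Log2 CPM of 6 enzymes against the cortical score (mean log2 CPM of 14 markers) in 12 libraries, with varenicline 6 ringed. Libraries with a higher score tend to have more Pde1a, Adcy1 and Adcy2 and less Pde10a, Adcy5 and Pde1b in both groups, and varenicline 6, at 5.31, lies with the saline libraries.

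Over the whole list of cortical markers, 14 of 14 had lower mean values with varenicline, 10 of them with an unadjusted p under 0.05 in edgeR. Their summed level was 813 to 1455 CPM with saline and 285 to 1257 with varenicline, and no marker was at 0. Markers of striatal projection neurons were higher in mean for 14 of 14 (6 with an unadjusted p under 0.05), those of septum and pallidum for 11 of 11 tested (9), those of oligodendrocytes for 11 of 12 (5) and those of astrocytes for 9 of 10 (3). Without varenicline 6, edgeR called 10 cortical markers lower, and 5 striatal, 2 septal or pallidal, 6 oligodendrocyte and 2 astrocyte markers higher, at an adjusted p under 0.05. Of 10 vessel markers, 7 were lower in mean and 0 had an unadjusted p under 0.05, with summed levels of 310.0 to 354 and 284 to 335 CPM. Choroid plexus markers, 7 of 7 higher in mean and 0 with an unadjusted p under 0.05, ranged from 82.7 to 1692 CPM with saline and from 94.8 to 1944 with varenicline. Microglial markers were 4 higher and 4 lower, and of 6 thalamic markers tested 5 were lower. Of the hypothalamic or pituitary markers 1 was tested, Pomc, with a log2 fold change of 2.52 (SE 0.966, adjusted p = 0.207 in edgeR) that rests on varenicline 6, since without that library it was -0.20. The part of these marker differences in the results for the cyclases and phosphodiesterases was not tested beyond the fits with a score as covariate.

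Promoters were read for the members with a RefSeq entry, because cyclic AMP acts on transcription through the factor CREB, which binds the palindrome TGACGTCA or the shorter core TGACG. RefSeq promoters (GRCm38.p6, 250 bases before to 50 after each start) were matched for 34 of the 44 genes, 60 promoters in all. The whole palindrome, which reads the same on both strands, was in 0 of 60, beside 588 of 32851 promoters of all genes (1.79%). The core, searched as TGACG and as CGTCA on the other strand, and also present inside the palindrome, was in 12 of 60 (20%), beside 6837 of 32851 (20.8%). Of the 9 enzymes with an unadjusted p under 0.05, 7 had a promoter to search, not Adcy6 and Adcy8. Of the 7, Pde1a, Pde4a and Pde4b had a promoter with the core, and these are shown 5′ to 3′ on the strand of the gene with the core in capitals. The stretches are chr2:80038853-80039152 on the minus strand for Pde1a, 1 of its 4 promoters, chr9:21183851-21184150 on the plus strand for Pde4a, 1 of 3, and chr4:102421305-102421604 on the plus strand for Pde4b, 1 of 4.
Pde1a: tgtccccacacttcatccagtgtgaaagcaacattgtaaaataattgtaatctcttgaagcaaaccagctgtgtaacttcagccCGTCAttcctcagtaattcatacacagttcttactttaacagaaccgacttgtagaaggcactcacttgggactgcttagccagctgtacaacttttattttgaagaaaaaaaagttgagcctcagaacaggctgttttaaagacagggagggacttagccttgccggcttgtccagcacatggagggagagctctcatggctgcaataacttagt
Pde4a: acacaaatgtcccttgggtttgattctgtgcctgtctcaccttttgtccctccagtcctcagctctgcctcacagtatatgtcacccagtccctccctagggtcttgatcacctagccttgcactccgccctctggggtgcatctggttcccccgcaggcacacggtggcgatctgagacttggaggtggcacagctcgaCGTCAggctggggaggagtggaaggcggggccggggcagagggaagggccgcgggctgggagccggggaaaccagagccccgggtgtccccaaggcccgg
Pde4b: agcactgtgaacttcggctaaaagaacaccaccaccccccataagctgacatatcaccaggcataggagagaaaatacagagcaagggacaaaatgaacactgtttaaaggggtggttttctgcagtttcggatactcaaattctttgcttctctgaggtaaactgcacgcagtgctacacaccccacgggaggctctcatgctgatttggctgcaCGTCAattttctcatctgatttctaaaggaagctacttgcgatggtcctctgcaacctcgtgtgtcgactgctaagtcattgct
The core begins 166 bases before the start in Pde1a, 50 in Pde4a and 34 in Pde4b. The means of these 3 genes differed between the groups in different directions, lower for Pde1a and Pde4a and higher for Pde4b. Such a match is a description of the letters only.

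The partners of these enzymes in the pathway were taken from lists chosen with earlier results of these data known, and with 12 libraries 0 genes in any of them passed an adjusted p of 0.05 in edgeR. Their counts at an unadjusted p under 0.05 stand beside 7.27% of all genes higher and 9.64% lower, and their calls without varenicline 6 beside 3.06% and 7.58%. Of 10 genes for the effectors, protein kinase A, protein kinase G and Epac, 5 were higher and 5 lower in mean, 1 and 2 of them with an unadjusted p under 0.05. Prkar1b, a neuronal regulatory subunit of protein kinase A, had means of 541 ± 77.3 and 384 ± 98.9 CPM in saline and varenicline libraries (SD, n = 6 each), a log2 fold change of -0.50 (SE 0.135, adjusted p = 0.142 in edgeR), and -0.65 without varenicline 6 (adjusted p = 0.000611). The catalytic subunit Prkaca had -0.13 (SE 0.0504) and the regulatory subunit Prkar2b 0.22 (SE 0.103). Without varenicline 6, Prkaca fell (-0.17, adjusted p = 0.0154) and Prkar2b rose (0.30, adjusted p = 0.0163), so that 1 effector was called higher and 2 lower. Of 9 G protein subunits 4 were higher and 5 lower, 0 and 2 with an unadjusted p under 0.05. Gnaz, an inhibitory alpha subunit, had -0.34 (SE 0.0855) and Gnas, the stimulatory one, -0.29 (SE 0.123). Gng7, a gamma subunit abundant in striatum, had 0.25 (SE 0.125) and the inhibitory Gnai2 -0.11 (SE 0.0741). Without varenicline 6, Gnaz (-0.42, adjusted p = 0.00106) and Gnas (-0.42, adjusted p = 0.00731) fell and no other G protein subunit was called. With the cortical score as a covariate over 12 libraries, Prkar1b, Prkaca and Prkar2b had -0.12, -0.04 and -0.02. Gnaz had -0.18 and Gnas 0.03 in that fit, so that the signs of Prkar2b and Gnas turned. There, 0 effectors and 0 G protein subunits had an unadjusted p under 0.05 in edgeR.

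On the side of cyclic GMP, a list of nitric oxide and natriuretic peptide input also held Guca genes, which are neither. Of its 14 genes 9 were tested, 2 higher and 7 lower in mean, 0 and 2 with an unadjusted p under 0.05. The higher ones were Guca1b (0.75 on the log2 scale) and Nos1 (0.005). The adaptor of neuronal nitric oxide synthase, Nos1ap, had means of 75.6 ± 9.40 and 54.0 ± 9.77 CPM in saline and varenicline libraries (SD, n = 6 each), a log2 fold change of -0.49 (SE 0.114, adjusted p = 0.132 in edgeR), and it fell by 0.57 without varenicline 6 (adjusted p = 0.00287). Nppc, which encodes C-type natriuretic peptide, had -0.54 (SE 0.209), and -0.60 without varenicline 6 (adjusted p = 0.105). All 3 calmodulin genes were lower in mean, with Calm3 at -0.25 (SE 0.0806) and an unadjusted p under 0.05 for that gene alone. Calm3 fell without varenicline 6 (-0.31, adjusted p = 0.00923). In the CREB family and its coactivators 6 were higher and 2 lower, 0 with an unadjusted p under 0.05 and 0 called without varenicline 6. Of 11 kinase substrates, inhibitors and anchors 7 were higher and 4 lower, 3 and 1 with an unadjusted p under 0.05. The kinase inhibitor Pkib had -0.64 (SE 0.231), and the striatal phosphoprotein Arpp21, its relative in name Arpp19 and the anchor Akap5 had 0.26, 0.23 and 0.20. Without varenicline 6 these 3 rose, by 0.34, 0.30 and 0.27 (adjusted p = 0.0242, 0.0274 and 0.0268), and Pkib had -0.70 (adjusted p = 0.0801).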

How the data were processed

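RNA was made into TruSeq libraries and sequenced as 150 nt single reads, per the labels' protocols. The authors deposited gene counts, not normalized, which were the main values. The authors also deposited FPKM values, scaled to gene length and library size, and a signal of scaled counts per gene that its name ties to Cuffnorm; both served as alternatives. The submitters' processing notes name mm10 as the build and list Trimmomatic and FastQC, the aligner TopHat2, the counter featureCounts, and DESeq2, Cuffnorm and Cuffdiff; the sources used here do not state versions, annotation or strand setting. Exon length is per the file headers.

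The members and lists were chosen with earlier results of these data known. Genes with at least 10 counts in 6 libraries were TMM-scaled and compared in edgeR 4.0.16 (quasi-likelihood F test, group only, Benjamini-Hochberg over 15111 genes, threshold 0.05). Fold changes are log2, varenicline minus saline, and SE comes from the fit. CPM uses TMM-scaled totals. Marker scores use a prior count of 2. Floors cover counting error only. Promoters of chromosome 18 were not used. The list of channels gated by cyclic nucleotides is not reported here. Replicate numbers follow deposition order. Full values are given for members with an unadjusted p under 0.05 and the 2 highest per length in each class, and in other lists for up to 4 genes with the smallest p; Gucy2g, Pde2a and Pde4d are described more fully after their values were seen.

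Alternatives were other size factors and filters, DESeq2 1.42.0, sample-weighted limma-voom, limma 3.58.1 on log2 of FPKM plus 1 or 0.1 and of the scaled counts plus 1, marker scores as covariates, each library left out and, added after seeing the data, DESeq2 with the cortical score. R was 4.3.3 and figures used matplotlib 3.10.9. The scripts were checked on simulated data.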

Additional observations from a re-analysis of the deposited data

Results flagged for a closer look

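In 3 enzymes varenicline 6 lay far from the other varenicline libraries. Its log2 CPM was 7.31 for Pde4b, beside 7.62 to 7.71 in the other 5, 7.17 for Pde4a, beside 6.44 to 6.70, and 9.71 for Pde2a, beside 9.92 to 10.02. Saline 6 had a log2 CPM of 3.18 for Pde12, beside 3.55 to 3.76 in the other saline libraries. A gap of this size relative to the group's range arises by chance in about 1 in 20 groups, and 4 of the 70 sets of 6 values examined had one. The sets come from the same 12 libraries and are not independent, so this count cannot decide whether the gaps arose by chance.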

How the results depend on the processing

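The direction was the same as reported in 861 of 944 values computed for the 35 enzymes under up to 27 alternatives, and it was reversed in 83. For 12 enzymes it was never reversed, and 23 reversed somewhere. With the cortical score as a covariate, the log2 fold changes that reversed were Adcy3 -0.068, Adcy5 -0.15, Adcy7 0.039, Gucy1a3 -0.094, Gucy1b3 -0.13, Gucy2g 0.41, Pde10a -0.20, Pde1b -0.14, Pde2a -0.11, Pde3a -0.31, Pde3b -0.029, Pde4a 0.024, Pde4b -0.016, Pde4d 0.16, Pde5a 0.0018, Pde7b -0.18, Pde8a -0.084, Pde8b -0.034. With that score and without varenicline 6 they were Adcy3 -0.083, Adcy5 -0.23, Gucy1b3 -0.020, Gucy2g 0.21, Pde10a -0.21, Pde1a 0.15, Pde1b -0.13, Pde2a -0.12, Pde3a -0.77, Pde3b -0.071, Pde4d 0.055, Pde5a 0.21, Pde7b -0.12, Pde8a -0.27, Pde8b -0.048. In DESeq2 with the cortical score they were Adcy3 -0.065, Adcy5 -0.14, Adcy6 0.00014, Adcy7 0.043, Gucy1a3 -0.091, Gucy1b3 -0.12, Gucy2g 0.41, Pde10a -0.20, Pde1b -0.13, Pde2a -0.11, Pde3a -0.31, Pde3b -0.024, Pde4a 0.026, Pde4b -0.012, Pde4d 0.16, Pde5a 0.0038, Pde7b -0.18, Pde8a -0.082, Pde8b -0.031. With the oligodendrocyte score they were Adcy3 -0.057, Adcy5 -0.033, Adcy7 0.032, Gucy1b3 -0.10, Pde10a -0.065, Pde1b -0.015, Pde2a -0.067, Pde3a -0.048, Pde4d 0.045, Pde7b -0.045, Pde8a -0.072, Pde8b -0.028. With the score of septum and pallidum they were Adcy4 0.046, Pde8a -0.041. On log2 of the scaled counts plus 1 they were Adcy3 -0.0026, Adcy7 0.091. Adcy7 was also reversed on log2 of FPKM plus 1 (0.062) and plus 0.1 (0.10), and Pde6d in limma-voom (0.042). Leaving out each library in turn gave -0.018 to 0.045 for Adcy3, -0.038 to 0.072 for Pde12, -0.032 to 0.054 for Pde3b, -0.089 to 0.020 for Pde6d and -0.0014 to 0.12 for Pde8a. The cause of these reversals was not tested.

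Of all genes, edgeR called 0, DESeq2 406, limma-voom with sample weights 2102, edgeR with the cortical score 6, edgeR with the oligodendrocyte score 2 and DESeq2 with the cortical score 26. Leaving out each library in turn gave 0 to 1609 in edgeR, with 4 without varenicline 2 and 1609 without varenicline 6. Of the 35 enzymes, DESeq2 called 1 and limma-voom 14, and leaving out each library gave 0 to 11, the latter without varenicline 6. Enzymes at an unadjusted p under 0.05 numbered 9 as reported and 21 in limma-voom. They numbered 1 with the cortical score, 3 with the score of septum and pallidum, 0 with the oligodendrocyte score, 3 with the cortical score without varenicline 6 and 2 in DESeq2 with the cortical score. Leaving out each library gave 5 (without saline 5) to 18 (without varenicline 6), with 15 without saline 4. Counts under other size factors and filters stayed within 1.5 times those reported.

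No paired analysis was possible because the labels pair no samples and number every library as the first replicate. Low counts left 9 of the 44 enzymes untested. The labels give no batch. Group and cortical score are not independent in these libraries, so a fit with that covariate removes part of any difference the 2 share, and their contributions cannot be told apart.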
